A study of Mus musculus with 34 samples.

Results

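The comparison set 9 mouse livers whose oncogenic transgene had been silenced for 12 weeks against 3 livers of mice that carried no transgene, 12 of the 34 arrays in the series. Members were taken by sample title. The 9 livers had carried c-Myc (n = 3), TGFα (n = 3) or both TGFα and c-Myc (n = 3), and doxycycline given for 12 weeks had turned the transgene off. The control livers had 0 weeks of doxycycline, so transgene history and 12 weeks of the drug came together in every silenced liver and cannot be told apart. The labels give C57BL/6 as the strain of the reference and state no strain, sex, age, diet or hour of collection for the livers themselves. They do not name the promoter that drove each transgene. Each sample is called a biological replicate, with no animal named, so p-values measure the spread between these samples. The design text names tumors, silenced livers and normal liver as the conditions of the study, and the question here is what still set silenced livers apart from normal liver. Values are log2 of sample (Cy3) over a pooled liver reference of mice of mixed gender (Cy5), and a difference is the mean of the 3 silenced groups less the control mean. The other groups used were livers silenced for 4 weeks (n = 9) and, for levels only, the tumors of each genotype.

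c-Myc is a transcription factor that drives growth and division, and TGFα is a ligand of the EGF receptor. The liver also keeps a circadian clock, in which CLOCK and ARNTL (BMAL1) bind E-box sequences and switch on the Per, Cry and Nr1d genes, whose proteins then act back on the same loop. Through this loop and through glucocorticoid and feeding signals, many genes of liver metabolism change over the day.

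Between 44.1% and 63.1% of probes were well above background in the sample channel of the 9 silenced livers, and between 58.5% and 68.0% in the controls. The number of arrays limits the precision. No slide held both groups. Of the 9 silenced livers, 8 were scanned on 1 day with no control, and c-Myc replicate 2 shared a scan day with control replicate 1. A sex score from Xist and Y-linked genes put 4 of the 9 silenced livers and 1 of the 3 controls on the Xist-high side. Of 13 measured hepatocyte markers none passed the threshold, which only 0.0351% of all genes passed. Their median difference was 0.04 against -0.01 for all genes. The c-Myc and TGFα genes themselves passed the threshold at no kept probe, with differences of 0.38, 0.51 and -0.57 for Myc and -0.02 and 0.08 for Tgfa. These probes read the mouse sequence, and whether they also read the transgenes is not stated.

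Of 17084 genes tested, 6 passed an adjusted p of 0.05 (limma, Benjamini-Hochberg), which is 0.0351% of genes; 4 were higher (0.0234%) and 2 were lower (0.0117%) in silenced livers. In all 6 genes the 9 silenced livers did not overlap the 3 controls. Over all genes such separation was found for 4.6% (2.22% with every silenced liver above and 2.38% with every one below). At an unadjusted p under 0.05 the count was 2913 genes (17.1%, of which 8.51% higher and 8.55% lower). A group of 36 genes lay just outside the threshold, at an adjusted p of 0.0508. The count depended on single arrays: without control replicate 3 it was 1 gene, and without control replicate 1 it was 255.

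The smallest p belonged to a probe assigned to Hbb-bh1, an embryonic beta-like globin gene on chromosome 7. The array carries a pair of probes for this gene that overlap by 40 bases, shown because they gave unlike results. What else the first probe may bind was not tested, so its signal is not shown to be Hbb-bh1 RNA. Capitals mark the shared bases.
Probe with signal: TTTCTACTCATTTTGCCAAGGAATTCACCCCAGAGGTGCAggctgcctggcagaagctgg
Probe without signal: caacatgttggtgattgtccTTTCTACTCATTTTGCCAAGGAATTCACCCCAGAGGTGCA
On the first probe the controls read 0.56, 0.69 and 0.03, and the silenced livers read from 4.21 to 4.92 with a median of 4.51. All 9 silenced livers were well above background and none of the 3 controls was. The probe thus passed the filter only through the silenced livers, and its rank and p-value are no support by themselves. Since no control was above background, the supported size is a bound, at least 7.43-fold, with the controls set at the lowest signal measured above background. The fitted difference, which rests on control values below background, was 4.11 (SE 0.19, adjusted p = 6.56e-06 in limma) and 2.32 under another background correction (normexp with loess). The second probe was not well above background on any of the 34 arrays. Other globin probes gave smaller differences. The adult genes Hba-a1 and Hbb-bt differed by 0.40 and 0.49, and the embryonic Hbb-y by 0.41, none past the threshold. Across the series the first probe was well above background on 27 of 31 transgenic arrays. The 4 without signal were TGFα tumors 2 and 3, TGFα 4-week replicate 1, and TGFα and c-Myc 4-week replicate 3, and these arrays also stood apart over all genes, with a mean r of 0.0032, -0.02, -0.05 and 0.10 with the controls. It was the only gene past the threshold in all 3 histories (0.00585% of genes), with fitted differences, on the same low controls, of 4.10 for c-Myc, 4.33 for TGFα and 3.90 for both. Those 3 contrasts share their controls. Under normexp with loess, with or without the sex score, 12 genes were shared and Hbb-bh1 was not among them. With all 34 arrays in the fit the only shared gene was Per1. On the authors' series matrix values the Hbb-bh1 difference was 2.69 and did not pass (adjusted p = 0.324 in limma).

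**Figure D1:**
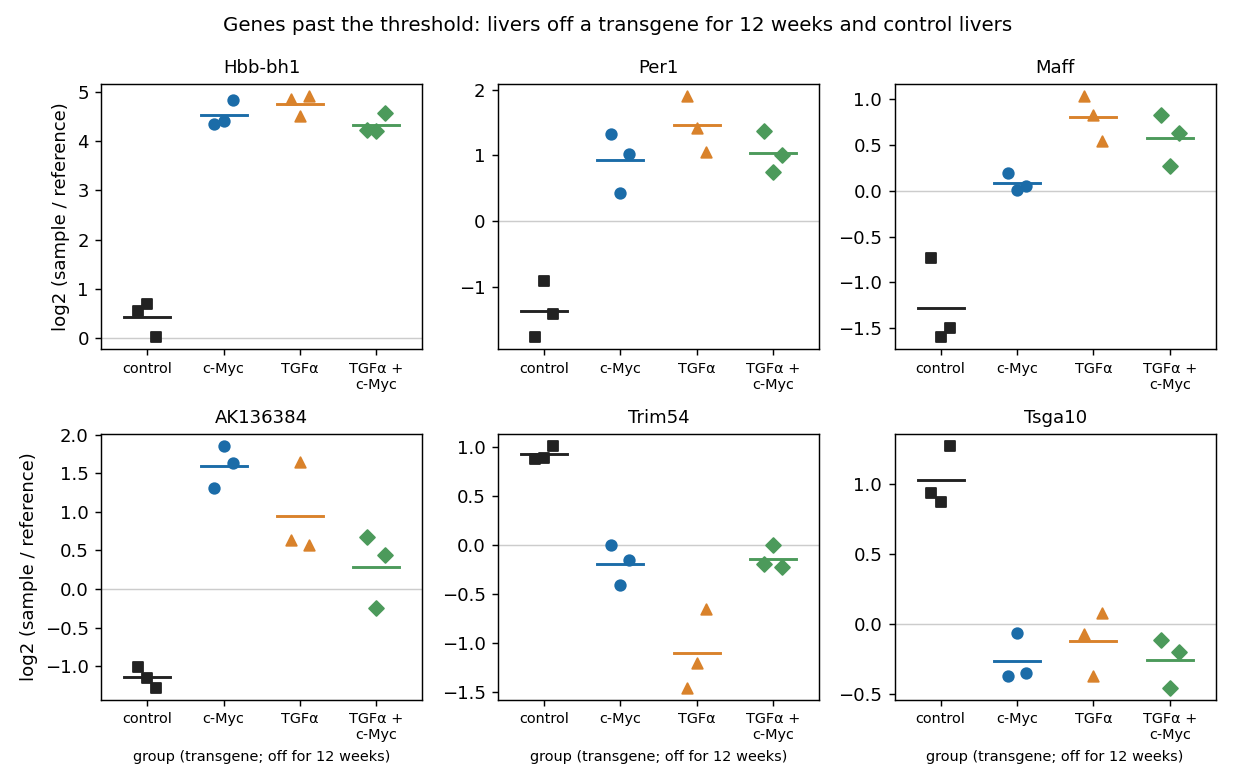
Values of the 6 genes past the threshold, as log2 of sample over reference, by group (3 arrays each); lines are group means. In each panel the control squares lie apart from all 9 silenced livers. The control squares of Hbb-bh1 were not well above background, and for Trim54 only 1 of 9 silenced livers was.

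Per1, a core repressor of the clock that also answers to glucocorticoid and cAMP signals, was among the 4 genes called higher. Controls read -1.77, -0.92 and -1.42, and the 9 silenced livers ran from 0.43 to 1.91 with a median of 1.05. The lowest silenced liver was above the highest control. The difference was 2.51 (SE 0.26, adjusted p = 0.0121 in limma), and it was 2.30 in c-Myc, 2.82 in TGFα and 2.41 in TGFα and c-Myc livers. On the single scan day that held both groups, 1 liver exceeded 1 control by 2.20. Per1 was lower in the controls than in every other group of the series, the nearest being TGFα and c-Myc livers silenced for 4 weeks at -0.27 ± 0.22 (SD, n = 3). The call was lost without control replicate 3 (adjusted p = 0.181 in limma). It was also lost in Xist-low livers alone and with scan day as a block. That block ties silenced livers to controls only through the 1 liver and 1 control of the shared day.

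Maff, a small Maf transcription factor induced by stress signals, read -0.74, -1.59 and -1.50 in controls and 0.00 to 1.03 (median 0.54) in silenced livers. The groups did not overlap, with a difference of 1.76 (SE 0.21, adjusted p = 0.0289 in limma). On the shared scan day the difference was 0.74. The call was lost in 7 of 12 fits with 1 array left out. The transcript AK136384, known here only by its accession, read -1.01, -1.15 and -1.28 in controls and -0.25 to 1.85 (median 0.67) in silenced livers, a difference of 2.09 (SE 0.27). It was highest in c-Myc livers, at 2.74 above control. Under normexp with loess its difference was 0.65 and did not pass (adjusted p = 0.0602 in limma). The AK136384 call was also lost in 6 of 12 fits with 1 array left out.

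The falls were in Trim54 and Tsga10. Trim54, a RING-type protein best known from muscle, read 0.89, 0.89 and 1.01 in controls and -1.45 to 0.00 (median -0.23) in silenced livers, and fell by 1.40 (SE 0.18). It was well above background in all 3 controls but in only 1 of 9 silenced livers. Trim54 thus passed the filter only through the controls, and its p-value and lack of overlap are no support by themselves. The size of the fall rests on silenced values that were mostly not well above background. It was only 0.30 under normexp and loess (adjusted p = 0.0766 in limma). Tsga10, best known from testis, read 0.94, 0.88 and 1.27 in controls and -0.46 to 0.08 (median -0.21) in silenced livers. It fell by 1.25 (SE 0.17), or by 0.53 under normexp and loess, and no silenced liver reached the lowest control. The calls of Trim54 and Tsga10 were each lost in 7 of 12 fits with 1 array left out.

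**Figure D2:**
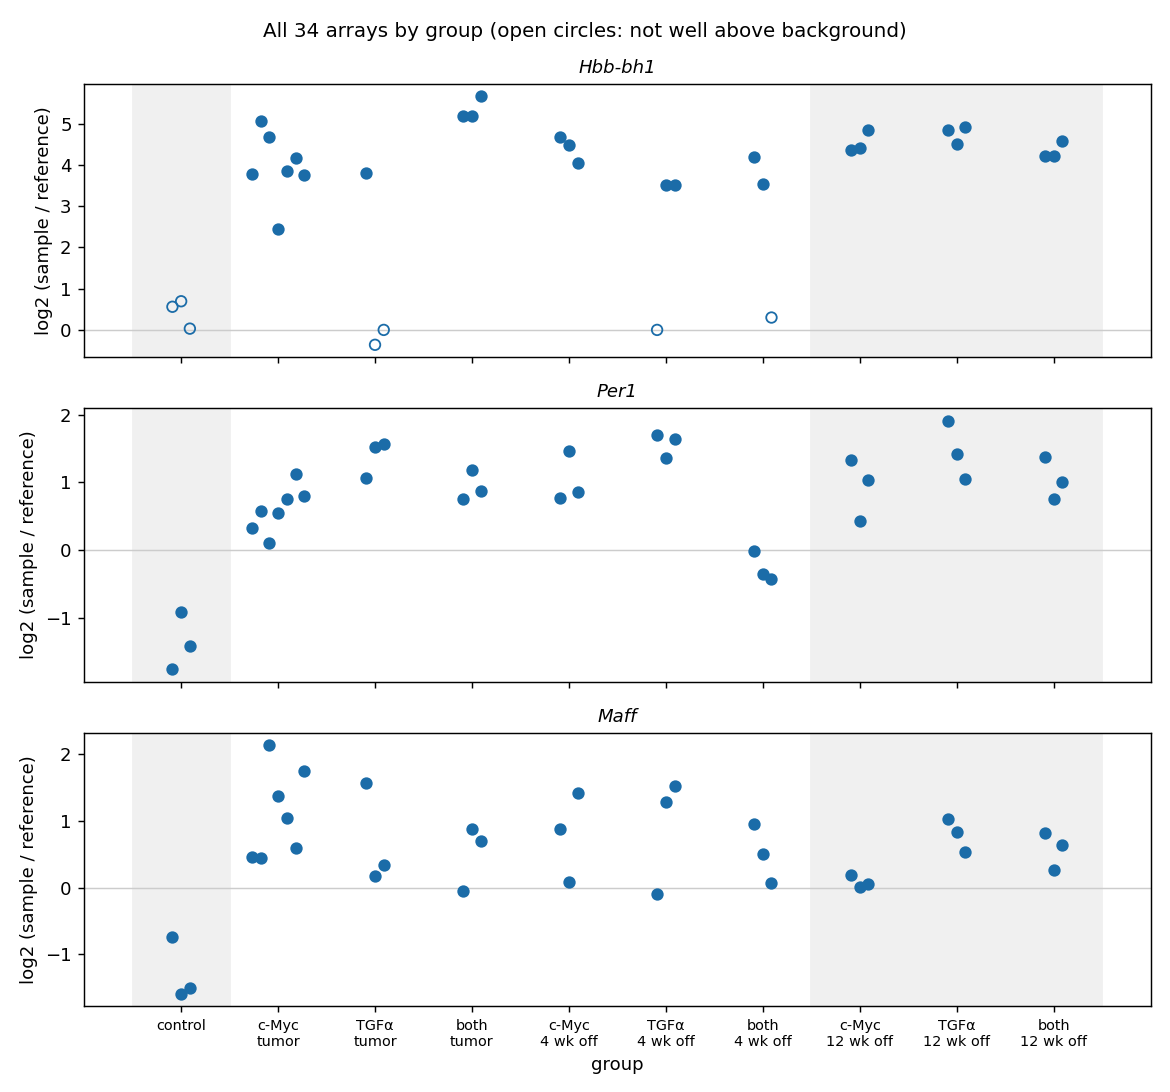
Hbb-bh1, Per1 and Maff on all 34 arrays, as log2 of sample over reference by group; open circles were not well above background and grey bands mark the groups compared. Per1 lay between -1.77 and -0.92 in the controls and above that range on every other array.

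The clock genes were read as 3 lists. Promoters of Per1 and Ciart, the members of the repressing list with the largest differences, are shown because both hold E-boxes (CACGTG, in capitals, which is the same on both strands). The windows span 300 bases around the gene start in RefSeq (GRCm38.p6).
Per1, chr11:69098699-69098998, plus strand: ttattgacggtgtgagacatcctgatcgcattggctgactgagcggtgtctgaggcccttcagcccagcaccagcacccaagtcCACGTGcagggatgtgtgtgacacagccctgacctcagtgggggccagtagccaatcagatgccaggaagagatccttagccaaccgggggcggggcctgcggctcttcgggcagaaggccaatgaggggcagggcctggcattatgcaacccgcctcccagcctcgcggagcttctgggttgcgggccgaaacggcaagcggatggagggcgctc
Ciart, chr3:95882179-95882478, minus strand: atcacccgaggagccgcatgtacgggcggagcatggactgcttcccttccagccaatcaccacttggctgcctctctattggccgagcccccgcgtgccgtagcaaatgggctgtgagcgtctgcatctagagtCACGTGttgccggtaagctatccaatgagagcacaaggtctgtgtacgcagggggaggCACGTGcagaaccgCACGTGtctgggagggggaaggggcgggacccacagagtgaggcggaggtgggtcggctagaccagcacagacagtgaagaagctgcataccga
Of 32 promoter windows found for 24 clock genes, 8 held an E-box (25%), against 7.15% of 32851 windows of the same length. Per1 has another start whose window held none. Of the D-box (TTATGTAA, both strands), 2 of 32 clock windows had a match, against 0.938% of all windows. A match is a description of the letters and not a measured binding site.

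In the repressing arm 9 of 10 genes were measured. Per1 alone passed the threshold (background 0.0351%), 8 of 9 lay above the controls on average (48.7% of all genes did), and the median difference was 1.06. That median was 0.59 under normexp and loess and 0.33 for the single pair on the shared scan day. Ciart, a repressor of CLOCK and ARNTL, read -1.41, -1.63 and -1.81 in controls and -0.68 to 1.35 (median 0.93) in silenced livers, with no overlap. Its difference of 2.40 (SE 0.39) missed the threshold at an adjusted p of 0.0508 in limma. Per2, the partner of Per1, differed by 1.67 (SE 0.24, adjusted p = 0.0508 in limma), from 0.02, -0.72 and -0.67 in controls to 0.53 to 1.61 (median 1.25). Its groups did not overlap on this probe, but a second Per2 probe differed by -0.31. Per3 and the cryptochrome Cry1 differed by 1.06 and 1.07 (0.24 and 0.25 under normexp and loess), with overlapping groups. Nr1d1, which encodes REV-ERB alpha, was the exception at -0.62 (SE 0.57), with silenced livers spread from -2.62 to 0.97. The remaining members, Nr1d2, Cry2 and Bhlhe40, lay 0.82, 0.76 and 0.46 above control with overlapping groups.

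None of the 5 measured genes of the activating arm passed, and their median difference was -0.57 (-0.23 under normexp and loess). Arntl, the partner of CLOCK, read -1.30, 0.16 and -0.17 in controls and -3.05 to 0.14 (median -1.65) in silenced livers. These ranges overlapped, with a difference of -1.16 (SE 0.55), and the difference was 0.08 with scan day as a block. Clock itself differed by -0.74 (SE 0.23). Nfil3, counted in this list although it is a repressor at D-boxes, differed by -0.57, the value that sets the list median. Rora differed by 0.01, and both had overlapping groups.

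Of the 15 clock output genes none passed, and the median difference was 1.09. Of the 15, 14 lay above the controls on average, against 48.7% of all genes. The 9 silenced livers were all above the controls for 7 of them and all below for 1, against 2.22% and 2.38% of all genes. Rgs16, a regulator of G protein signaling, had the largest difference, 3.82 (SE 0.78). Its controls read 0.62, -4.12 and -2.86, so the spread lay among the controls, and the silenced livers ran from 0.79 to 2.40 (median 1.87). Usp2, a ubiquitin protease, differed by 2.83 (SE 0.44, adjusted p = 0.0508 in limma), and Noct, a phosphatase of NADP(H), by 2.29 (SE 0.45). Upp2, a uridine phosphorylase, read -1.43, -2.23 and -2.77 in controls and -0.67 to 1.06 (median -0.31) in silenced livers, a difference of 2.14 (SE 0.35). Tef, a D-box binding factor, differed by 1.11 and Gys2, the liver glycogen synthase, by 1.09, both without overlap. Wee1, a kinase that restrains mitosis, differed by 2.22 (0.40 under normexp and loess) but was well above background in only 1 control and 2 silenced livers. Alas1, the rate-limiting enzyme of heme synthesis, differed by 2.00 (SE 0.59), with 8 of 9 silenced livers above every control and 1, at -2.00, among them. Hlf and Dbp, D-box binding factors like Tef, differed by 0.50 and 0.52, and Coq10b by 1.06, Tspan4 by 0.75, Por by 0.68 and Lonrf3 by 0.04. Avpr1a, a vasopressin receptor, was the member lying below, at -0.99 (SE 0.24). The hour at which livers were collected is not in the labels, and its part in these values was not tested. Over the 12 arrays the genes whose values ran most like those of Per1 were Hbb-bh1 (Pearson r of 0.945), Tmem97 (0.923), Slc15a4 (0.923) and, lower in the same ranking, Maff (0.907), given as a description since the arrays share the 2 groups.

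**Figure D3:**
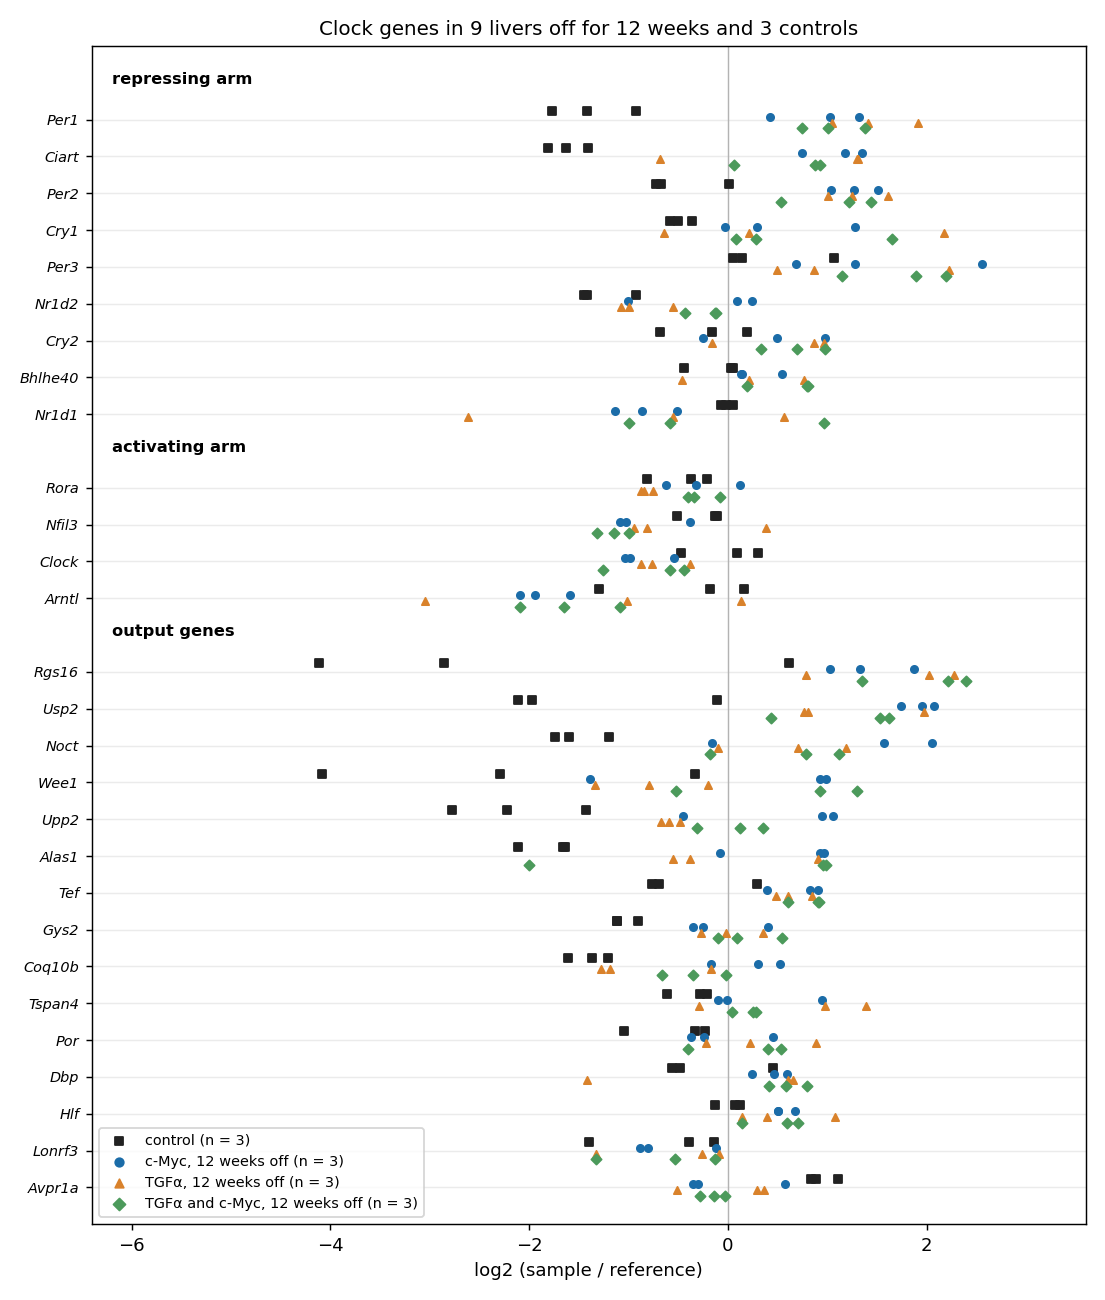
Clock genes on 12 arrays, as log2 of sample over reference; squares are controls and the other symbols are silenced livers by transgene, and 1 measured gene is not shown. Control squares lie to the left of most other symbols in the repressing and output lists, and the order is less even in the activating list.

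Sex was uneven between the groups, so the contrast was also fitted with the sex score as a covariate. That fit called 131 genes (0.767%; 0.375% higher and 0.392% lower), all 6 genes above among them. It called 3 of 9 repressing and 6 of 15 output genes, all higher. Under normexp and loess 523 genes passed (3.06%; 1.04% higher and 2.03% lower), including 4 of the 6 genes, 4 repressing genes and 8 output genes, of which Avpr1a was lower. Per1 differed by 3.03 among Xist-high livers (4 against 1 control) and by 2.22 among Xist-low livers (5 against 2 controls). Ciart differed by 2.58 and 2.19 in the same order, so both lay above control on each side. The 1 Xist-high control, replicate 1, was also the control of the shared scan day.

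The 3 histories were compared with each other without the controls, and no gene passed (0% of 17084; limma F test), while 1761 genes (10.3%) had an unadjusted p under 0.05. The smallest p belonged to Apba2, an adaptor protein, which was 1.16 above control in c-Myc livers and -0.28 and -0.37 from control in TGFα and TGFα and c-Myc livers (adjusted p = 0.166 in limma). Nnmt, which methylates nicotinamide, stood at 2.59, 0.49 and -0.72 from control in the same order (adjusted p = 0.239 in limma). Against the controls, c-Myc livers had 2 genes past the threshold (0.0117%, both higher), Hbb-bh1 and AK136384. TGFα livers had 7 (0.041%; 0.0293% higher and 0.0117% lower), and TGFα and c-Myc livers had Hbb-bh1 alone (0.00585%).

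Genes of metabolism gave several large differences that did not pass. Thrsp, which promotes fatty acid synthesis, read -0.15, -0.53 and -1.29 in controls and 0.42 to 1.74 (median 1.07) in silenced livers, a difference of 1.73 (SE 0.26, adjusted p = 0.0508 in limma). Insig2, which restrains sterol synthesis and was picked after its values were seen, lay below the controls at -1.24 (SE 0.19). Cyp7a1, the rate-limiting enzyme of bile acid synthesis, read 0.05, -0.56 and -0.75 in controls and 0.64 to 3.21 (median 1.52) in silenced livers. The groups did not overlap, and the difference was 2.03 (SE 0.44, adjusted p = 0.077 in limma). Acsm2, a medium-chain acyl-CoA synthetase, lay far below control at -3.23 (SE 0.89; -1.85 under normexp and loess, which passed), with controls of 2.64, 2.10 and 3.09 and silenced livers from -3.38 to 1.84. Slc38a2, a neutral amino acid transporter, read -0.47, -0.99 and -1.07 in controls and 0.14 to 1.52 (median 0.89) in silenced livers, a difference of 1.67 (SE 0.34) without overlap. As lists, fatty acid synthesis (15 genes) had a median of 0.29, bile acid genes (17) 0.08, and the urea cycle and amino acid breakdown (27) 0.45. Each had 0 genes past the threshold, against 0.0351% of all genes.

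Stress and hormone lists also held no gene past the threshold, which only 0.0351% of all genes passed. Of 14 glucocorticoid-induced genes 12 lay above the controls (48.7% of all genes did), with a median of 0.86. Klf15, a glucocorticoid target that governs amino acid use, outside the list and named after its values were seen, differed by 1.12 (SE 0.19, adjusted p = 0.0514 in limma), while Mt1, a metallothionein, read 2.87, -1.53 and -1.23 in controls and thus varied more among controls than the difference of 2.82. Immediate early genes (16) had a median of 0.70, or 0.38 under normexp and loess. Cdkn1a, the p53 target that arrests the cell cycle, read -0.69, 0.15 and -1.33 in controls and 0.95 to 4.12 (median 1.83) in silenced livers, a difference of 2.76 (SE 0.53, adjusted p = 0.0631 in limma) that was 0.95 under normexp and loess. Gclc, which makes the first step of glutathione synthesis, read 0.50, 0.48 and 0.43 in controls and -0.99 to -0.24 (median -0.51) in silenced livers, a difference of -1.07 (SE 0.21) without overlap. Hsp90aa1, a chaperone, also lay below all controls at -1.03 (SE 0.25). The p53 list as a whole (15) had a median of 0.19. MYC-driven growth genes (20) and EGF receptor ligands with ERK feedback genes (15) were centred at 0.09 and -0.01, near the -0.01 of all genes, and cell cycle genes (24) at -0.20 (-0.0027 under normexp and loess, 0.38 on the shared scan day).

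Lists for other cells and for sex were read the same way. None held a gene past the threshold, which only 0.0351% of all genes passed. Neutrophil markers (10 measured) had a median of 1.00, which was 0.10 under normexp and loess. B and plasma cell markers (9) had a median of -0.87, which was -0.20 under normexp and loess, 0.09 on the shared scan day, -0.05 among Xist-high and -1.03 among Xist-low livers. In bulk liver, fewer cells of a type and less RNA per cell cannot be told apart. Kupffer cell markers (13) were centred at 0.04, but at 0.89 among Xist-high and -0.62 among Xist-low livers. Endothelial markers (13) were centred at -0.22. Female-biased liver genes (18) had a median of 1.09 and male-biased genes (17) of -1.01. Within Xist-high livers these medians were 0.26 and -0.65, and within Xist-low livers 0.61 and -0.55. Sult1e1, an estrogen sulfotransferase, shows the spread: controls read 3.63, 0.05 and -0.65, and silenced livers 2.61 to 5.02 (median 4.60).

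**Figure D4:**
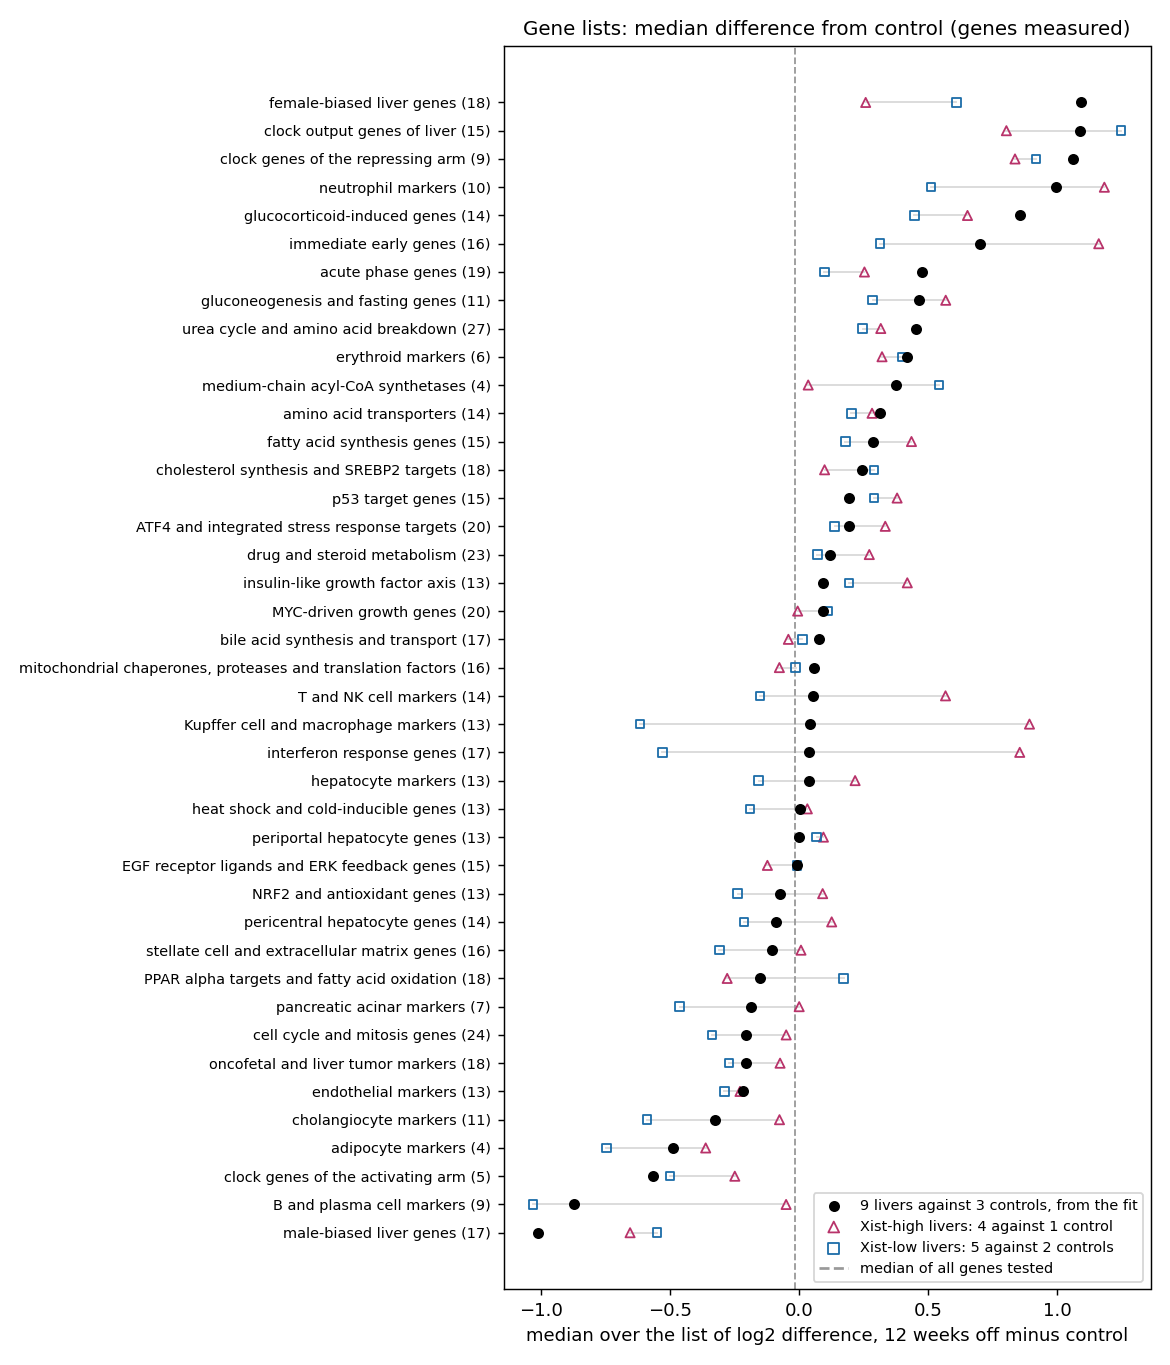
Median log2 difference from control for each gene list (number measured in brackets) over all livers (black) and within Xist-high (triangles) and Xist-low (squares) livers; the dashed line is the median of all genes. Clock output and repressing genes lie to the right in all 3 readings, and the black points of the sex-biased lists lie farther from the line than their open symbols.

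Livers silenced for 12 weeks were last set against those silenced for 4 weeks, which share no scan day with them. Of the 4-week livers, only the c-Myc livers shared a scan day with a control. The TGFα livers and the TGFα and c-Myc livers at 4 weeks shared no day with a control or a 12-week liver. The fit left out 1 TGFα array at 4 weeks that stood apart (mean r of -0.05 with the controls across genes). Another 4-week array that stood apart, TGFα and c-Myc replicate 3 (mean r of 0.10), was kept. It read 0.30 for Hbb-bh1, not well above background. Of 20339 genes, 1579 passed (7.76%, with 4.11% higher and 3.66% lower at 12 weeks). With scan day as a block 15 passed. That fit cannot separate weeks from day for the 4-week groups without a shared day, so its calls are not read as a check. Dlk1, an imprinted fetal liver gene, was 1.87 higher (SE 0.20) at 12 weeks, and Wdr76 was lower by -1.62 (SE 0.20; adjusted p = 0.00151 in limma). Under normexp and loess these differences were -0.0275 and -0.12, and neither passed. None of the 11 genes chosen by name for this comparison, Coq10b among them, kept its call in the scan day fit. That loss is likewise not read as a check. Of the 29 measured clock genes, 1 passed: Coq10b, which serves coenzyme Q function, was lower at 12 weeks by -0.72 (adjusted p = 0.0264 in limma). Its call was also lost without c-Myc 4-week replicate 2 or TGFα 4-week replicate 2 or 3 (adjusted p = 0.0528, 0.0771 and 0.0658 in limma). Per1 differed by 0.39 (adjusted p = 0.184 in limma). Livers silenced for 4 weeks, read against the same controls, had 110 genes past the threshold (0.541%, with 0.324% higher and 0.216% lower). Without TGFα and c-Myc 4-week replicate 3 that count was 342. Per1 stood 2.12 above control at 4 weeks, and Hbb-bh1 had a fitted difference of 3.1, on the same controls below background.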

How the data were processed

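The authors deposited Agilent 2-color scanner files. Per the file headers, intensity values were background-subtracted and dye-normalized by Feature Extraction, and the deposited log10 ratio is red (Cy5) over green (Cy3). The background method was not the same throughout: control replicate 2 has code 7 and every other array of the comparison code 5. The c-Myc 4-week livers have code 7 and the other 4-week livers code 5. The part of this setting in the values was not tested. The log10 ratio was used as deposited. It was turned to log2 of sample over reference. The series matrix holds the authors' log2 values; limma is named per the submitters' processing notes, without version, and scale, centring and direction are not stated. Each column correlated best with its own array.

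Control spots were dropped and outlier spots left out. Probes were retained where well above background on at least 3 of the 12 arrays; each gene was read at its brightest kept probe. Groups were compared in R 4.3.3 with limma 3.58.1 (lmFit, eBayes, 1 coefficient per group, Benjamini-Hochberg threshold 0.05). On simulated data, 32% of genes changed by 1 and 78% of those changed by 2 (log2) were recovered, and 8 unchanged genes were called. The simulation held independent noise and no scan day, slide or array effect, so these rates need not hold for the real arrays. Named genes were those past the threshold without overlap, all clock genes, up to 4 per other list by smallest p, and 5 per side for 12 against 4 weeks (not all are printed, and which are was settled with the values in view). The comparison, members and lists were chosen with earlier results of these data known. Alternatives mostly changed 1 choice at a time (other background settings came with loess, and some added later joined 2 choices, such as normexp and the sex score): background with dye correction, scaling, channel, filters, probe rule, weights, samples, blocks, sex score, and each array left out. The values of 1 gene are not reported here.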

Additional observations from a re-analysis of the deposited data

Results flagged for a closer look

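In 6 of 87 genes checked among the 9 silenced livers (6.9%), 1 liver lay apart from the other 8 by a gap that exceeded Dixon's critical value for 9 values as a share of the range. Chance alone flags about 5% of such groups. Dbp, a D-box binding clock output factor, read -1.42 in TGFα replicate 2 with the nearest liver at 0.24. Fos, an immediate early gene, read -2.43 in TGFα replicate 3 with the nearest at -0.27. TGFα and c-Myc replicate 2 was lowest for Mt1, at 1.497 (nearest 2.53), and for Foxo1, a transcription factor of fasting metabolism, at 0.40 (nearest 1.13). Fah, the last enzyme of tyrosine breakdown, was highest in c-Myc replicate 1, at 0.61 (nearest 0.36). Phlda1 read -1.80 in TGFα replicate 1 (nearest -0.90). None of these genes had passed the threshold against the controls, and the cause was not tested.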

How the results depend on the processing

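The count of genes past the threshold between silenced and control livers moved with most choices. Both other background settings also replaced the scanner's dye normalization with loess. The count was 523 under normexp with loess, 645 with no background subtraction and loess, 3 on the series matrix values, 27 with median centring, 92 with quantile scaling, 1501 on the sample channel alone, 36 with no filter on dim probes (more genes tested), 126 with probes well above background on all 12 arrays (fewer genes tested), 16 with the mean over probes, 3677 with array weights, 66 with the livers as 1 group, 78 with all 34 arrays, 401 with the 4-week livers added, 2 with slide as a random block, 3 with scan day as a block, 3 on the shared scan day alone, 131 with the sex score and 429 with normexp and the sex score. The higher share of calls was 4 of 6 as reported, 177 of 523 under normexp, 44 of 92 after quantile scaling and 644 of 1501 on the sample channel. The count was also 6 with outlier spots kept, with trend and with a 2-fold minimum. With scan day as a block all 6 reported genes lost their call, so the genes counted there are others. That fit ties silenced livers to controls only through the 1 liver and 1 control scanned on the same day. In Xist-low livers alone 6 genes passed (3 higher and 3 lower), of which only Hbb-bh1 was among the 6 reported. The labels do not say that replicate numbers pair the livers. Of 18 same-numbered pairs, 14 had an r over 0.1 (lowest -0.13, median 0.29, against -0.13 for other pairs), short of all pairs, while 10 of 12 arrays correlated best with their own number, a hint from the data and not the design. With the replicate block the pooled count was 175, and the counts were 1 for c-Myc, 55 for TGFα and 12 for both.

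Leaving out 1 array gave 1 (control 3) to 255 genes (control 1), with 2 without control 2, c-Myc 1, TGFα 1 or TGFα and c-Myc 1 or 3, 10 without c-Myc 2, 46 without c-Myc 3, 4 without TGFα 2, 14 without TGFα 3 and 70 without TGFα and c-Myc 2. For c-Myc the range was 1 to 140, for TGFα 1 to 44, for both 1 to 15, for genes shared by all histories 1 to 8, and between histories 0 to 1. For 12 against 4 weeks it was 588 (without TGFα 4-week replicate 3) to 1985, and for 4 weeks against control 4 to 342.

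For c-Myc livers the count was 159 under normexp with loess, 81 with no subtraction and loess, 1 on the matrix, 598 on the sample channel, 1 unfiltered, 0 with the all-array filter, 1965 with array weights, 1 with 34 arrays, 100 with the 4-week livers, 1 with the slide block, 4 with the sex score, 25 with normexp and the sex score, and 1 in Xist-low livers. For TGFα livers it was 80, 86, 21, 242, 19, 15, 2057, 28, 247, 3, 11, 122 and 0 in that order, 19 with the mean over probes and 0 with the scan day block. For TGFα and c-Myc livers it was 24, 14, 4 and 649 under the first 4 of these, 4 with quantile scaling, 5 with the all-array filter, 2107 with weights, 31 with 34 arrays, 41 with the 4-week livers, 0 with the scan day block, 46 with the sex score and 153 with normexp and the sex score. Genes shared by all 3 histories numbered 12 under normexp with loess, 10 with no subtraction and loess, 0 on the matrix, 76 on the sample channel, 0 with the all-array filter (which drops Hbb-bh1), 509 with weights, 6 with the 4-week livers, 0 with the scan day block, 2 with the sex score, 12 with normexp and the sex score, and 0 in Xist-low livers. Between histories, 3 genes passed on the matrix, 1 unfiltered, 1 with weights, 2 with the 4-week livers and 1 in Xist-low livers. For 12 against 4 weeks the count was 950 under normexp, 7 with the slide block and 15 with the scan day block. For 4 weeks against control it was 1027 under normexp, 10 with the slide block, 37 with the scan day block, 32 with the set-aside array kept and 221 without both doubted arrays and with the sex score. The scan day block cannot separate weeks from day in these 2 comparisons, since some 4-week groups shared no day with other groups compared.

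Signs turned for genes near 0: Rora, 0.01 as reported, was -0.0064 with no subtraction, -0.0157 on the matrix, -0.18 with the mean over probes, -0.0326 with weights, -0.15 with the scan day block, -0.0232 with the sex score, -0.0892 in Xist-low livers and -0.17 to 0.13 with an array left out. Lonrf3, 0.04 as reported, was -0.39 with weights, -0.14 in Xist-low livers and -0.34 to 0.29 with an array left out. With the scan day block Arntl was 0.0806, Dbp -0.0778, Por -0.0474, Mt2 -0.46 and Ms4a1 0.62. For 12 against 4 weeks Arap1 was -0.0763 with that block, which there cannot separate weeks from day. On the shared scan day alone Por was -0.13 and Mt2 -0.50. Cxcr2 was 0.12 on the matrix, and Dlk1 for 12 against 4 weeks was -0.0275 under normexp. No slide held both groups, so no within-slide value could be given. Where a value moved, the cause was not tested.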
